A study of Homo sapiens with 24 samples.

Results

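The E2F and RB family was taken here as 10 genes, the E2F transcription factor genes E2F1 to E2F8 and the pocket protein genes RB1 and RBL1, found by matching the Ensembl identifier of each table row to these symbols. They are 10 of the 61860 genes listed, and all 10 passed the filter on low counts in each of the 4 experiments. The libraries came from OE33, a human cell line derived from an esophageal adenocarcinoma (EAC), with 3 treated and 3 control libraries in each experiment. In the first, OE33 tumors were grown under the skin of male BALB/c-nu nude mice, animals without a thymus that keep their other host cells. The mice were bought at 4 weeks of age. They were kept for 8 weeks before injection on normal chow (ND) or on chow rich in fat (HFD). They stayed on these diets after the injection, and the tumors were removed 21 days after it. Mice of the HFD group were selected by a weight above a limit set from the ND mice. In the second, cultured OE33 cells received a TRIM15 plasmid (OE-TRIM15) or the empty vector (EV) for 48 h. In the third and the fourth, cells received an shRNA against YY2 (shYY2) or FOXRED1 (shFOXRED1) for 72 h, each with its own control shRNA (shControl). Every group carried the OE33 background, and no source used here says which shRNA of each gene was sequenced or whether the libraries of a group came from separate cultures or pooled tumors, so the p-values measure the spread between these libraries. The study placed TRIM15, the transcription factor YY2 and the mitochondrial protein FOXRED1 in 1 axis of EAC growth. It reported more proliferation of EAC cells with TRIM15 overexpression and with knockdown of YY2 or FOXRED1, and larger tumors on HFD. The comparisons below give the level of the 10 cell cycle regulators when diet or 1 of these genes was changed. Growth itself was not measured here.

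E2F proteins bind DNA together with a DP partner and control the genes of DNA replication. The pocket proteins hold them inactive until cyclin D and cyclin E kinases phosphorylate the pocket protein and free the E2F, which lets the cell enter S phase. E2F1, E2F2 and E2F3 act mainly as activators, E2F4 and E2F5 mainly as partners of the pocket proteins in repression, E2F6 as a repressor without a pocket protein, and E2F7 and E2F8 as atypical repressors that bind without a DP partner. The E2F1 and E2F2 promoters are textbook targets of E2F factors themselves, so the family regulates part of its own transcription, and loss of control over the pocket proteins is common in human tumors.

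Because the members themselves can be E2F targets, their promoters are shown where they hold an E2F word. RefSeq promoters of GRCh38.p14, from 250 bases before to 50 after the start, were given for 8 of the 10 members, without E2F5 and E2F8. They were searched on both strands for TTTGGCGC, TTTCCCGC, TTTCGCGC and TTTGCCGC, which do not overlap in the windows printed here, and a word was found in 4 of the 8 members against 3.31% of all 35116 promoters in the table. Capitals mark the words, on either strand, in the stretches below, which are written 5′ to 3′ along the gene and end before its start. E2F1 and RBL1 hold 2 words each, E2F2 holds 1, and E2F3 holds 1 at 1 of its 2 RefSeq starts. Members are counted by gene, E2F3 once for its 2 starts, whereas the share of all promoters counts single windows.
E2F1, chr20:33686386-33686433, minus strand: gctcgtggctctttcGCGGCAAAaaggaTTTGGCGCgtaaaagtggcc
E2F2, chr1:23531253-23531290, minus strand: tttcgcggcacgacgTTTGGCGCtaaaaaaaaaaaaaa
E2F3, chr6:20401811-20401848, plus strand: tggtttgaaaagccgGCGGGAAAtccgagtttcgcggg
RBL1, chr20:37095998-37096038, minus strand: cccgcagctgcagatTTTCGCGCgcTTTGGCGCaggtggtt
The YY word AAGATGGC, the core of the motif shared by YY1 and YY2, was found on both-strand search in E2F6 alone among the 8, within the first 50 transcribed bases, against 2.89% of all promoters. The cell cycle homology word TTTGAA was found in E2F3 alone, against 15.2% of all promoters. A word is a match of letters and not a shown binding site.

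The 24 libraries held between 14299807 and 45994561 counts. The targeted genes moved as labelled: TRIM15 had 111, 130 and 181 counts in the OE-TRIM15 libraries and 0 in each EV library, YY2 fell by 1.82 on the log2 scale with shYY2 (SE 0.215, adjusted p = 1.3e-06), and FOXRED1 fell by 0.78 with shFOXRED1 (SE 0.115, adjusted p = 4.06e-05). The fall of YY2 rests on few reads, 11, 12 and 11 counts in the shYY2 libraries against 43, 40 and 46 in their controls. All 8 epithelial markers had at least 10 counts in each library, with a summed level between 12103 and 18272 CPM (counts scaled to the size of a library). That sum was 17587 to 18272 CPM with shYY2 against 12756 to 13603 CPM in its control and 14516 to 14746 CPM on HFD against 13456 to 13718 CPM on ND, and the groups of the other experiments overlapped. Of 7 stromal markers 1 had at least 10 counts in each library of a group. Their summed level was 42.8 to 44.8 CPM with shYY2 against 10.5 to 11.1 CPM in its control. With shFOXRED1 it was 37.9 to 41.1 CPM against 23.9 to 25.3 CPM in its control. With OE-TRIM15 it was 11.4 to 12.2 CPM against 12.5 to 13.7 CPM in EV. The sum of 6 leukocyte markers was lower in each treated library than in each control with shYY2, 10 to 10.7 against 14.2 to 15.4 CPM, with shFOXRED1, 20.5 to 23.8 against 24.3 to 26.4 CPM, and on HFD, 14.4 to 14.5 against 15.4 to 16.7 CPM, and higher with OE-TRIM15, 8.94 to 10.3 against 8.1 to 8.42 CPM. The sum of 3 adipocyte markers was 0.607 to 1.3 CPM with shYY2 against 0.218 to 0.25 CPM in its control. The part of these markers in the results below was not tested. In the xenografts the stromal sum was 23.1 to 26.5 CPM on HFD and 29.8 to 32.6 CPM on ND, and summed endothelial and adipocyte markers reached at most 0.513 and 0.501 CPM; the treatment of host reads is not stated, and the part of mouse RNA in the xenograft counts was not tested.

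With shYY2, 9 of the 10 members fell and 1 rose, with shFOXRED1 6 fell and none rose, with OE-TRIM15 3 fell and none rose, and on HFD 5 rose and 2 fell. A gene is said to rise or fall where the adjusted p of edgeR's quasi-likelihood test, corrected over all genes tested, is under 0.05. Read against the share of all tested genes called in either direction, 10 of 10 members with shYY2 stood beside 75.0%, 6 of 10 with shFOXRED1 beside 36.6%, 3 of 10 with OE-TRIM15 beside 22.1% and 7 of 10 on HFD beside 49.5%. By direction, 38.1% of all genes fell and 36.8% rose with shYY2, 19.7% fell and 16.8% rose with shFOXRED1, 9.53% fell and 12.5% rose with OE-TRIM15, and 25.6% rose and 23.9% fell on HFD. The median log2 fold change of the 10 members was -0.80 with shYY2, -0.54 with shFOXRED1, -0.027 with OE-TRIM15 and 0.047 on HFD, where the medians of all genes were -0.0081, 0.012, -0.0065 and -0.012. Treated and control libraries did not overlap for 9 members with shYY2 (76.3% of all genes), 7 with shFOXRED1 (46.7%), 4 with OE-TRIM15 (37.7%) and 9 on HFD (56.2%). The members were chosen with earlier results of these data known, so the comparison with all genes is a description. In bulk RNA, fewer cells in a cell cycle phase and less RNA per cell cannot be told apart.

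**Figure D1:**
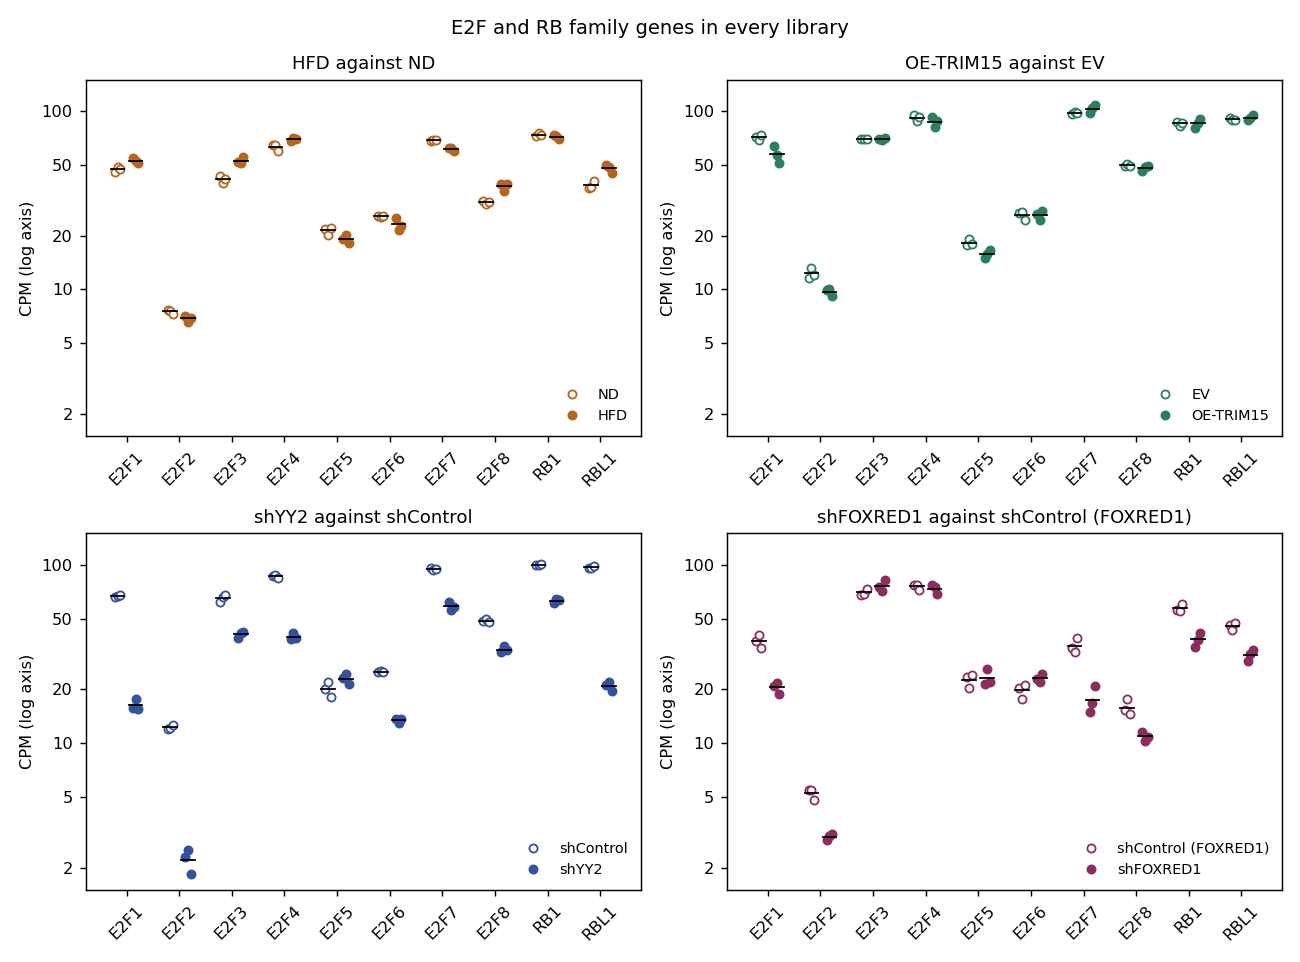
Level of each family member in CPM (log axis) in every library of the 4 experiments, with control libraries as open points, treated libraries as filled points and group means as bars. The shYY2 libraries lie below their controls for 9 of the 10 genes, whereas with OE-TRIM15 only E2F1, E2F2, E2F5 and E2F8 separate from the EV libraries.

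Among the activators, E2F1 had 65.6, 66.5 and 68.1 CPM in the shControl libraries and 15.8, 17.7 and 15.6 CPM with shYY2. Every shYY2 library thus lay far below every control, a fall of 2.03 on the log2 scale (SE 0.0533, adjusted p = 2.12e-14), or 4.08-fold. With shFOXRED1, E2F1 had 21, 21.8 and 18.8 CPM against 37.3, 40.6 and 34 CPM in its own control. The groups again did not overlap, and the gene fell by 0.86 (SE 0.0916, adjusted p = 1.27e-06). With OE-TRIM15 it had 63.7, 57.1 and 51.2 CPM against 71.8, 68.5 and 73.4 CPM, with the OE-TRIM15 libraries spread over a wider range than the EV libraries but all below them. That fall was 0.31 (SE 0.0612, adjusted p = 0.00252). The xenografts went the other way, with 54.3, 52.4 and 51.4 CPM on HFD and 45.3, 48.5 and 47.5 CPM on ND, a rise of 0.16 (SE 0.044, adjusted p = 0.0069). E2F1 was among the genes the study picked by crossing its OE-TRIM15 and shYY2 RNA results with YY2 CUT&Tag, which maps binding to DNA. The direction of E2F1 in those libraries is therefore not independent evidence, and the binding data were not examined here.

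E2F2, the least abundant member, changed most with shYY2, from 12, 12.2 and 12.7 CPM to 2.31, 2.52 and 1.84 CPM. The shYY2 libraries held 38, 42 and 34 reads of it, and all lay below the controls, which held 218, 207 and 252. It fell by 2.47 (SE 0.123, adjusted p = 3.56e-11), or 5.55-fold. With shFOXRED1 it fell by 0.81 (SE 0.179, adjusted p = 0.00185), on 45 to 56 reads a library against 71 to 99. With OE-TRIM15 it had 9.94, 10 and 9.17 CPM against 11.6, 13.2 and 12.1 CPM, and fell by 0.34 (SE 0.0867, adjusted p = 0.0116). This call was lost without EV replicate 2 (adjusted p = 0.0641). On HFD it had 6.61 to 7.1 CPM against 7.3 to 7.72 CPM, without overlap, and the log2 fold change of -0.13 did not pass the test (adjusted p = 0.231).

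E2F3, the remaining activator, fell less and did not follow E2F1 and E2F2 in the other cultures. With shYY2 it had 39, 41.3 and 42.1 CPM against 61.7, 66.1 and 67.9 CPM, a fall of 0.68 (SE 0.0477, adjusted p = 2.61e-09). With shFOXRED1 the groups overlapped, and the log2 fold change was 0.12 (adjusted p = 0.174). With OE-TRIM15 it was 0.006 (adjusted p = 0.935), with a 95% interval from -0.074 to 0.086. On HFD, E2F3 rose more than any other member, from 43.5, 39.5 and 41.4 CPM to 51.6, 51.1 and 55.4 CPM, or by 0.36 (SE 0.0492, adjusted p = 1.56e-05).

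E2F4, the main E2F of resting cells and a partner of the pocket proteins, fell with shYY2 from 87, 88 and 83.9 CPM to 38.2, 41.5 and 38.9 CPM. All shYY2 libraries were under all controls, and the fall was 1.13 (SE 0.0419, adjusted p = 1.08e-12). With shFOXRED1 the same gene had 68.2 to 77.4 CPM against 72.6 to 77.5 CPM, with overlapping groups and a log2 fold change of -0.045 (95% interval -0.18 to 0.10, adjusted p = 0.639). With OE-TRIM15 it was -0.07 (adjusted p = 0.333); without OE-TRIM15 replicate 1 it was called lower (adjusted p = 0.0271). On HFD it rose by 0.13 (SE 0.042, adjusted p = 0.0154), a call lost without HFD replicate 2 (adjusted p = 0.0509).

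E2F5, of the same class as E2F4, was the only member that rose with shYY2, from 20.1, 22.1 and 18.2 CPM to 23.1, 24.4 and 21.5 CPM. One shYY2 library lay within the control range, the rise was 0.19 (SE 0.0764, adjusted p = 0.0327), and the call was lost without either of 2 shYY2 libraries or 2 control libraries, replicates 1 and 2 and replicates 1 and 3 in turn (adjusted p = 0.0733, 0.132, 0.0715 and 0.177). It fell by 0.21 with OE-TRIM15 (adjusted p = 0.0443), a call lost without any 1 of OE-TRIM15 replicates 1 and 2 and the 3 EV libraries (adjusted p = 0.0769 to 0.164), and by 0.16 on HFD (adjusted p = 0.0452), a call lost without HFD replicates 1 or 3 or ND replicates 1 or 3 (adjusted p = 0.0927 to 0.229). The value of E2F5 is uncertain for another reason. Its exons share bases with RBIS (C8orf59), a protein-coding gene on the opposite strand that held up to 715 counts, and whether reads were counted by strand is not settled. RBIS itself had log2 fold changes of 0.02 with shYY2, 0.13 with OE-TRIM15 and -0.04 on HFD, none past the test.

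E2F6, which represses with Polycomb proteins, had 25, 25.3 and 25.2 CPM in the shControl libraries and 13.6, 13 and 13.7 CPM with shYY2. The 3 controls nearly coincided and lay well above the shYY2 libraries, and the fall was 0.90 (SE 0.0629, adjusted p = 2.26e-09). With shFOXRED1 it had 22.8, 22.1 and 24.4 CPM against 20.5, 17.8 and 21.3 CPM. These groups did not overlap, but the log2 fold change of 0.22 did not pass the test (SE 0.098, adjusted p = 0.0937). With the replicate number as a block it did (adjusted p = 0.049). On HFD the value was -0.15 (adjusted p = 0.0568), and without HFD replicate 1 the gene was called lower (adjusted p = 0.0166).

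Of the atypical repressors, E2F7 was the member that changed most with shFOXRED1, from 34.2, 32.6 and 39 CPM to 15, 16.7 and 20.8 CPM. The groups did not overlap and the fall was 1.02 (SE 0.112, adjusted p = 1.72e-06), or 2.03-fold. With shYY2 it had 61.8, 55.8 and 58.3 CPM against 95.6, 93.5 and 95.3 CPM, a fall of 0.69 (SE 0.0392, adjusted p = 1.64e-10). On HFD it fell from 68.2, 69.3 and 68.8 CPM to 62.1, 62.4 and 60.1 CPM, or by 0.16 (SE 0.0382, adjusted p = 0.00206). With OE-TRIM15 its log2 fold change was 0.082 (adjusted p = 0.177), and without OE-TRIM15 replicate 1 it was called higher (adjusted p = 0.0097).

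E2F8, which often acts together with E2F7, had 48.4, 49.8 and 47.7 CPM in the shControl libraries and 32.4, 35 and 33.1 CPM with shYY2. It fell by 0.54 (SE 0.0469, adjusted p = 3.55e-08). With shFOXRED1 it fell by 0.54 too (SE 0.116, adjusted p = 0.00153), from 15.4, 17.6 and 14.5 CPM to 11.6, 10.3 and 10.8 CPM. On HFD, E2F8 and E2F7 moved in opposite directions. E2F8 rose from 31.2, 30.2 and 31 CPM to 38.8, 35.7 and 39.2 CPM, or by 0.31 (SE 0.05, adjusted p = 8.2e-05). With OE-TRIM15 the 3 libraries lay just under the EV libraries, 45.9 to 49.3 CPM against 49.4 to 50.7 CPM, and the log2 fold change of -0.06 did not pass the test (adjusted p = 0.376).

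Of the pocket protein genes, RBL1 changed most with shYY2. It had 96, 95.5 and 98.7 CPM in the shControl libraries and 21.2, 22.1 and 19.6 CPM with shYY2. The fall of 2.21 (SE 0.0467, adjusted p = 2.02e-15), or 4.62-fold, was close to that of E2F1. With shFOXRED1 the gene had 28.8, 31.5 and 33.1 CPM against 46.2, 43.1 and 47.3 CPM and fell by 0.55 (SE 0.0779, adjusted p = 2.92e-05). On HFD it rose by 0.31 (SE 0.0516, adjusted p = 9.85e-05), from 37.3, 37.7 and 40.6 CPM to 50, 48.8 and 44.9 CPM. With OE-TRIM15 the groups overlapped and the log2 fold change was 0.028 (95% interval -0.055 to 0.11, adjusted p = 0.666).

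RB1, the retinoblastoma gene and the first known tumor suppressor, fell with shYY2 from a mean of 101 ± 0.756 CPM to 62.9 ± 1.79 CPM (SD, n = 3), or by 0.68 (SE 0.0346, adjusted p = 4.62e-11). With shFOXRED1 it had 34.7, 38.1 and 41.7 CPM against 56.1, 55.1 and 60.1 CPM. The lowest control library stood above the highest shFOXRED1 library, and the fall was 0.58 (SE 0.0777, adjusted p = 1.45e-05). On HFD and with OE-TRIM15 the groups overlapped. The log2 fold changes there were -0.038 (95% interval -0.12 to 0.043, adjusted p = 0.441) and 0.0048 (95% interval -0.09 to 0.10, adjusted p = 0.958).

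**Figure D2:**
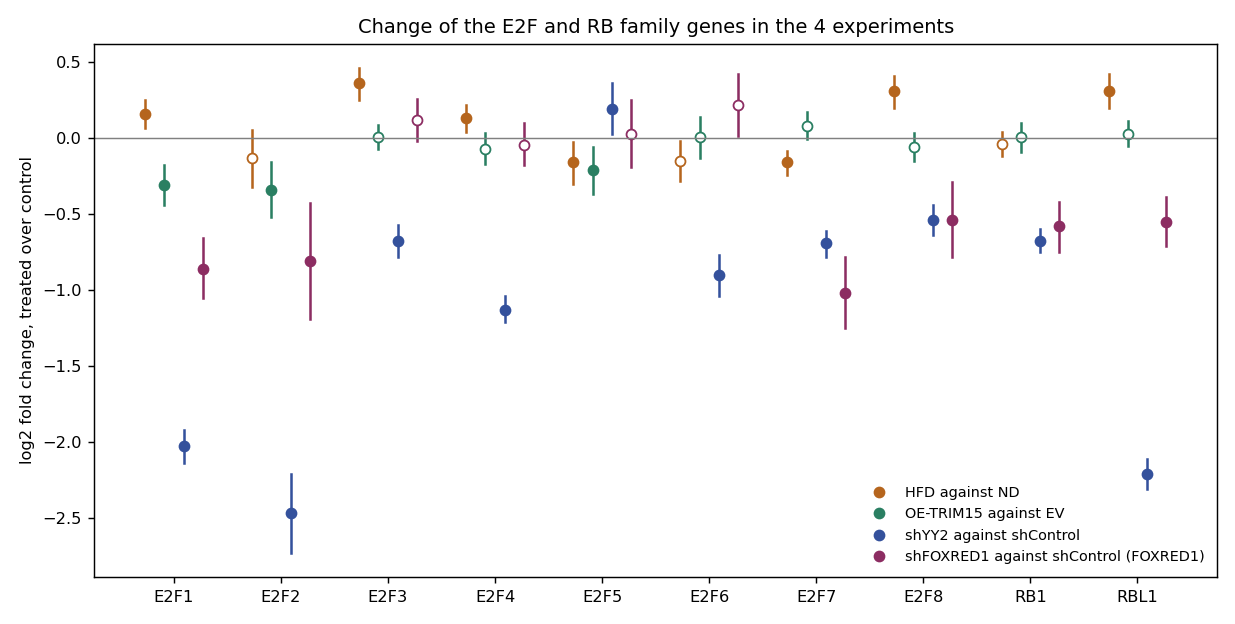
Log2 fold change of each family member (treated over control, vertical axis) with its 95% interval in the 4 experiments, where filled points passed the test at an adjusted p under 0.05 and open points did not. With shYY2, E2F1, E2F2 and RBL1 lie between -2.03 and -2.47, apart from the other members, which lie between -1.13 and 0.19.

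The 3 members that fell most with shYY2, E2F1, E2F2 and RBL1, were all among the 4 with an E2F word in the promoter stretch above, and E2F3, the fourth, fell by 0.68. The members without a word in their window, E2F4, E2F6, E2F7 and RB1, fell by 1.13, 0.90, 0.69 and 0.68. With shFOXRED1 the order differed, with E2F7, which holds no word, first at -1.02 and E2F3, which holds one, at 0.12. These are values of 8 genes side by side, and no test was made of them.

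The size of the shYY2 effect on the members was compared with those of the other treatments in 1 model over all 24 libraries. Against OE-TRIM15, the shYY2 effect was lower for 9 members and higher for E2F5. Of all genes, 57.4% differed, with 29.3% lower and 28.2% higher. The difference was -1.68 for E2F1 (SE 0.0976, adjusted p = 2.35e-15), -2.10 for E2F2 (adjusted p = 1.51e-13) and -2.20 for RBL1 (SE 0.0753, adjusted p = 9.79e-21). The cells were harvested at 48 h in one experiment and at 72 h in the other, so time and treatment cannot be told apart.

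Against shFOXRED1, the shYY2 effect was lower for 6 members, with 55.5% of all genes differing and 26.7% lower. The difference was largest for E2F2 at -1.62 (SE 0.172, adjusted p = 2.02e-09) and RBL1 at -1.61 (SE 0.0833, adjusted p = 2.09e-16), followed by E2F1 at -1.13, E2F6 at -1.08, E2F4 at -1.04 and E2F3 at -0.75. E2F7 was the only called member for which shYY2 had the weaker effect, where 28.8% of all genes were higher (difference 0.37, SE 0.0986, adjusted p = 0.00189). For RB1 and E2F8 the differences were -0.049 (95% interval -0.20 to 0.10, adjusted p = 0.594) and 0.04 (95% interval -0.15 to 0.24, adjusted p = 0.744), and for E2F5 the difference was 0.20 (95% interval -0.037 to 0.44, adjusted p = 0.145). FOXRED1 itself also fell with shYY2, by 0.89 (SE 0.0642, adjusted p = 3.31e-09), beside 0.78 with shFOXRED1. The part of that fall in the shYY2 effects was not tested. The controls of the 2 experiments were not alike, with E2F7 at a mean of 94.8 and 35.3 CPM, though E2F3 was at 65.2 and 70 CPM. The knockdowns differed in depth, with YY2 down by 1.82 and FOXRED1 by 0.78. The part of either in the differences was not tested.

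HFD raised TRIM15 in the tumors, from 1, 0 and 0 counts on ND to 14, 12 and 24 counts, so the HFD effect was set against that of OE-TRIM15. The HFD effect was higher for E2F1 by 0.47 (SE 0.0865, adjusted p = 8.24e-05), for E2F8 by 0.37 (adjusted p = 0.000245), for E2F3 by 0.36 (adjusted p = 0.000217), for RBL1 by 0.29 (adjusted p = 0.00185) and for E2F4 by 0.21 (adjusted p = 0.0244), and lower for E2F7 by a difference of -0.24 (adjusted p = 0.0211). That is 6 of 10 members, where 28.4% of all genes differed, 16.0% higher and 12.3% lower. HFD was measured in tumors and OE-TRIM15 in cells cultured for 48 h. For all these members, setting, time and treatment cannot be told apart. Every HFD library had more E2F1 than every ND library, and every OE-TRIM15 library less than every EV library. The E2F4 and E2F7 differences were lost without some single libraries, E2F4 without HFD replicate 2 (adjusted p = 0.0538), ND replicate 3 (0.0692), OE-TRIM15 replicate 2 (0.0935) or EV replicates 1 (0.064) and 3 (0.0528), and E2F7 without HFD replicate 3 (0.0646), OE-TRIM15 replicate 3 (0.0733) or EV replicate 1 (0.0526).

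**Figure D3:**
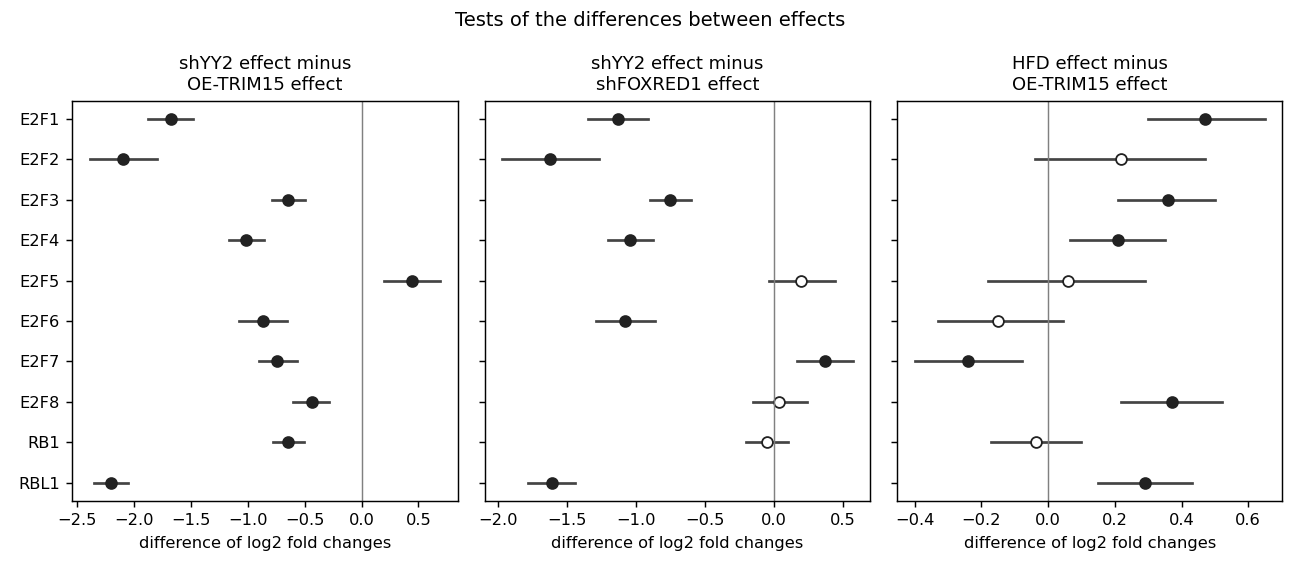
Difference between 2 log2 fold changes for each member (horizontal axis) with its 95% interval, for shYY2 minus OE-TRIM15, shYY2 minus shFOXRED1 and HFD minus OE-TRIM15, where filled points passed the test and open points did not. The shYY2 effect lies below the OE-TRIM15 effect for every member but E2F5, at 0.44, and the scale of the HFD panel is the narrowest.

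To compare the members with each other, counts were scaled to gene length (RPKM, CPM divided by the kilobases of merged exons, with all libraries normalized together). In ND, EV and the shYY2 controls, E2F1 was the highest, at 18.4 ± 0.598, 29.3 ± 1.02 and 26.4 ± 0.501 RPKM (SD, n = 3), with E2F4 next at 17.2 ± 0.724, 26.4 ± 1 and 23.9 ± 0.584 RPKM. E2F2 was the lowest in all 8 groups, from 0.414 to 2.32 RPKM on average, and E2F5 was the next lowest in 5 of them. With shYY2, E2F1 dropped from the first to rank 6 of the 10, at 6.63 ± 0.458 RPKM, and its share of the summed RPKM of the 8 E2F genes went from 26.1% to 13%. E2F4 was then the highest, at 11.2 ± 0.467 RPKM. RBL1 went from 16.1 ± 0.299 RPKM, above RB1 at 15.5 ± 0.126, to 3.57 ± 0.224 RPKM, below RB1 at 9.89 ± 0.24.

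The control groups of the shRNA experiments were not alike. E2F7 had 14.9 ± 0.202 RPKM in the control of shYY2 and 5.56 ± 0.504 in the control of shFOXRED1, E2F8 11.6 ± 0.246 and 3.8 ± 0.399, and RBL1 16.1 ± 0.299 and 7.6 ± 0.338. E2F1 was at 26.4 ± 0.501 and 14.8 ± 1.38 RPKM in these groups, while E2F3 was at 12.5 ± 0.61 and 13.5 ± 0.475. Experiment and control cannot be told apart here, and no test was made. In the shFOXRED1 experiment E2F4 was the highest in both groups, at 21 ± 0.858 RPKM in the control and 20.2 ± 1.32 with shFOXRED1, and E2F1 in the control overlapped with E2F3 next to it. Neighbours in the order overlapped in other groups too: E2F7 with RBL1 and E2F3 with RB1 in EV and OE-TRIM15, E2F4 with E2F1 in OE-TRIM15, RBL1 with E2F6 in ND, E2F3 with E2F7 on HFD, and E2F3 with E2F8 in the shYY2 control. With shYY2 they were RB1 with E2F7, E2F8 with E2F3, E2F5 with RBL1 and RBL1 with E2F6. With shFOXRED1 they were RB1 with E2F6, E2F6 with RBL1 and E2F7 with E2F8, and in its control E2F7 with E2F6 and E2F5 with E2F8.

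**Figure D4:**
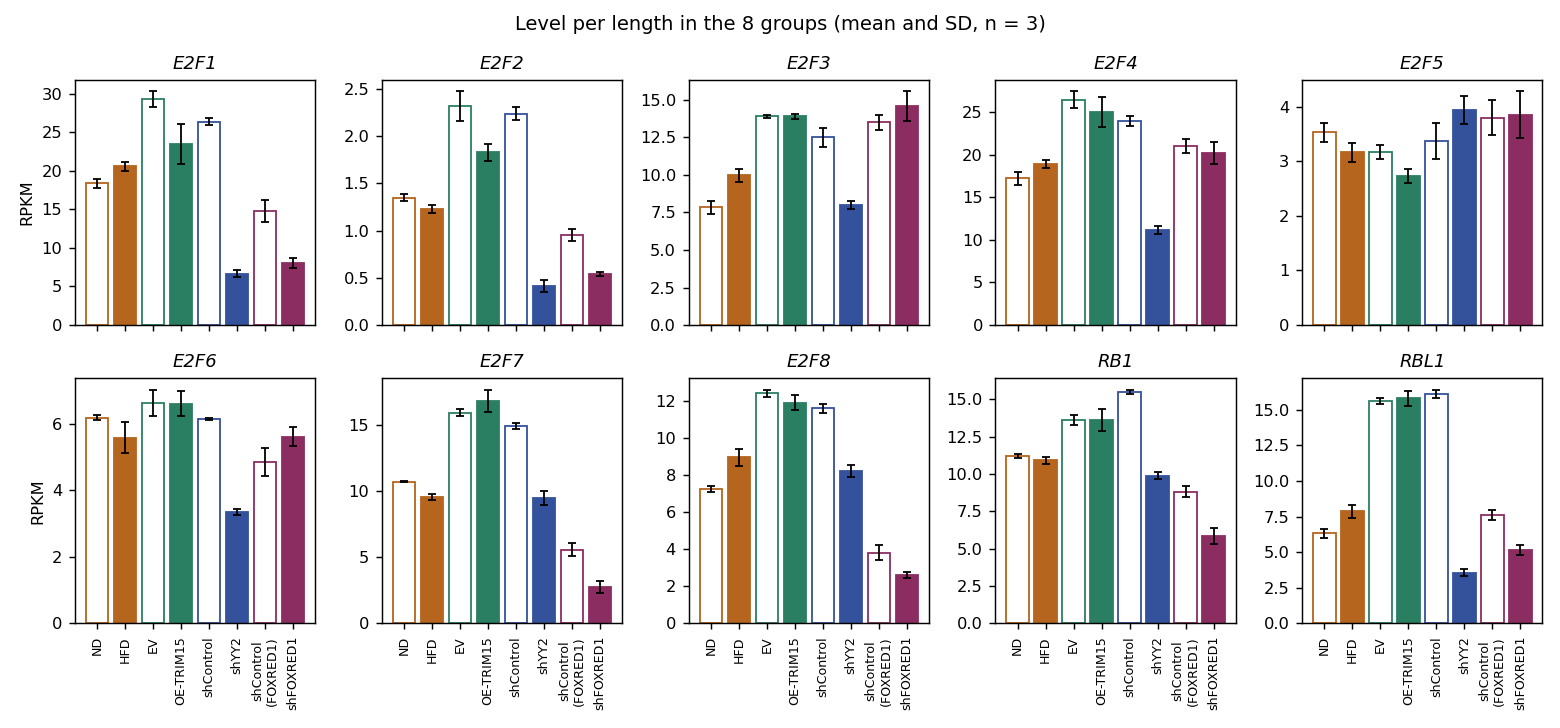
Level per length (RPKM, vertical axis, own scale for each gene) of the 10 members in the 8 groups, as mean and SD of 3 libraries, with control groups as open bars and treated groups as filled bars. E2F7, E2F8 and RBL1 are lower in the control of the FOXRED1 experiment than in the control of the YY2 experiment, and E2F1, E2F2 and RBL1 stand at 6.63, 0.414 and 3.57 RPKM with shYY2 against 26.4, 2.24 and 16.1 RPKM in its control.

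The partners of the family were followed in a list of 10 genes for the third pocket protein, the DP subunits and the MuvB and DREAM complexes. Of these, 7 fell and 2 rose with shYY2 (median -0.60), 7 fell and none rose with shFOXRED1 (median -0.39), 1 fell with OE-TRIM15 (median -0.03), and 2 rose and 4 fell on HFD (median -0.088). In either direction 9 of 10 were called with shYY2 (75.0% of all genes) and 7 with shFOXRED1 (36.6%). With OE-TRIM15 1 was called (22.1%) and on HFD 6 (49.5%). RBL2, the pocket protein gene of resting cells, went against RB1 and RBL1 with shYY2. It rose from 127, 124 and 120 CPM to 298, 297 and 289 CPM, or by 1.25 (SE 0.0316, adjusted p = 1.37e-14), whereas with shFOXRED1 it fell by 0.34 (adjusted p = 9.76e-05); the difference between these effects was 1.64 (SE 0.0563, adjusted p = 1.13e-20). TFDP1, which encodes the main DP subunit, fell by 0.86 with shYY2 and by 0.54 with shFOXRED1, while TFDP2 rose by 0.53 with shYY2. MYBL2, which joins MuvB to activate late cell cycle genes, had 55.2 to 60.1 CPM with shYY2 against 201 to 206 CPM in its control (log2 fold change -1.80), fell by 0.68 with shFOXRED1, and rose by 0.36 on HFD. FOXM1, the mitotic activator on the same complex, fell by 0.96 with shYY2, by 0.15 with OE-TRIM15 and by 0.35 on HFD, and LIN9, a MuvB subunit, fell by 0.65 with shFOXRED1. On HFD, LIN52 fell by 0.36 and TFDP1 by 0.20, and RBBP4 rose by 0.27. With OE-TRIM15, RBL2, TFDP1 and MYBL2 had log2 fold changes of 0.05, 0.013 and -0.12, and none passed the test. MYBL2 (adjusted p = 0.0569) was called lower there with DESeq2 size factors (adjusted p = 0.0499), the DESeq2 Wald test (0.0471), no filter (0.00668), the replicate block (0.0295) or without OE-TRIM15 replicate 1 (0.000339). The FOXM1 call with OE-TRIM15 was lost without OE-TRIM15 replicate 2 (adjusted p = 0.117), EV replicate 1 (0.102) or EV replicate 3 (0.0601). RBL2 on HFD had a value of 0.095 that did not pass (adjusted p = 0.0649), and was called higher with no filter (0.04) or without HFD replicate 2 (0.0346), ND replicate 1 (0.0363) or ND replicate 2 (0.0396).

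The cyclins, cyclin-dependent kinases and inhibitors that act on the pocket proteins made a list of 17 genes, of which CCND2 was under the filter in every experiment. With shYY2 10 fell and 5 rose (median -0.40), which is 15 of 16 tested beside 75.0% of all genes. CDC25A, the phosphatase that activates CDK2, fell by 2.62 (SE 0.0749, adjusted p = 5e-14), the cyclin E genes CCNE2 and CCNE1 fell by 2.40 and 1.06, and the cyclin D gene CCND1 fell from 604, 604 and 637 CPM to 204, 199 and 211 CPM, or by 1.59. The kinase inhibitors did not move together. CDKN1B (p27) rose from 48.5, 47.7 and 51.6 CPM to 134, 136 and 146 CPM, or by 1.49 (SE 0.0422, adjusted p = 4.56e-14), and CDKN1C rose by 2.42 from 0.804 ± 0.447 CPM, but CDKN1A (p21) fell by 0.64. With shFOXRED1 7 fell and 2 rose (median -0.23), which is 9 of 16 tested beside 36.6% of all genes. CCND1 fell by 0.71, CDK6 by 0.58, CCNE1 by 0.30 and CDKN1A by 0.24, CDKN2B rose by 0.65 and CDKN1B by 0.27, and CCNE2 at -0.32 did not pass the test. The CCNE1 call was lost without shFOXRED1 replicate 3 (adjusted p = 0.0655) or control replicates 2 (0.123) or 3 (0.0625).

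With OE-TRIM15 5 of 15 tested genes of this list rose and 3 fell, where 12.5% of all genes rose and 9.53% fell. CDKN2B, an inhibitor of CDK4 and CDK6, rose from 28.7, 28.1 and 26.8 CPM to 42, 43.6 and 44.4 CPM, or by 0.64 (SE 0.05, adjusted p = 5.03e-07). CDKN1B rose by 0.20, CDKN1A by 0.19 and CCND1 by 0.15, SKP2 fell by 0.25 and CDKN2C by 0.33, and CCNE1 and CCNE2 had values of 0.017 and -0.13 that did not pass. The CDKN2C call was lost with the DESeq2 Wald test (adjusted p = 0.113) and without OE-TRIM15 replicates 2 or 3 or EV replicates 2 or 3 (0.0644 to 0.0995), and the CDKN1B call without EV replicate 3 (0.0677). On HFD 6 of 16 rose and 6 fell, where 25.6% of all genes rose and 23.9% fell. SKP2, whose protein marks p27 for destruction, fell by 0.66 and CDKN1B itself fell by 0.55, while CDKN1A rose from 200, 197 and 192 CPM to 310, 305 and 301 CPM (0.64, SE 0.0339, adjusted p = 2.61e-10), CDKN2D rose by 0.44 and CCND1 by 0.35. CCNE1 and CCNE2 had values of 0.054 and -0.013 on HFD and did not pass.

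Partners of E2F6 in its repressor complex made a list of 8 genes. All 8 were called with shYY2 (75.0% of all genes) and 5 with shFOXRED1 (36.6%). With OE-TRIM15 3 were called (22.1%) and on HFD 5 (49.5%). They changed in both directions in every experiment, as did all genes. With shYY2 6 fell and 2 rose (median -0.30), led by L3MBTL2 at -1.27 and MGA at -0.64, with RNF2 at 0.49 and MAX at 0.21. With shFOXRED1 3 fell and 2 rose, PCGF6 by -0.32 and CBX3 by -0.31 against L3MBTL2 at 0.28 and RYBP at 0.20. With OE-TRIM15 2 rose, RYBP by 0.39 and MGA by 0.17, and CBX3 fell by 0.11. On HFD 3 rose and 2 fell, with RYBP at 0.21, MGA at 0.19, L3MBTL2 at -0.30 and RNF2 at -0.16. Several of these calls were lost without single libraries. With shFOXRED1, L3MBTL2 was lost without shFOXRED1 replicate 1 or control replicates 2 or 3 (adjusted p = 0.0679 to 0.1), PCGF6 without shFOXRED1 replicate 1 or control replicate 3 (0.0818 and 0.0836), and RYBP without any 1 of the 3 controls (0.0667 to 0.0934) and with no filter (0.0618). With OE-TRIM15, CBX3 was lost without OE-TRIM15 replicate 3 or any 1 of the EV libraries (0.0762 to 0.172) and MGA without EV replicate 1 (0.117). On HFD, RNF2 was lost without HFD replicate 1 (0.104), ND replicate 1 (0.0753) or ND replicate 3 (0.0585).

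The list of S phase targets, 26 genes known as E2F targets, also holds genes of later cell cycle phases such as TOP2A. The genes of this list that passed the test lay on 1 side within each experiment. With shYY2 23 fell and none rose (median -1.54), with shFOXRED1 25 fell and none rose (median -0.73), with OE-TRIM15 17 fell and none rose (median -0.12), and on HFD 20 rose and none fell (median 0.20). Of all genes, 38.1% fell with shYY2, 19.7% with shFOXRED1 and 9.53% with OE-TRIM15, and 25.6% rose on HFD. This list was chosen with earlier results of these data known, so the comparison with these shares is a description. CDC6, which loads the replicative helicase, fell with shYY2 from 104, 105 and 107 CPM to 16.2, 16.4 and 18.6 CPM, or by 2.63 (SE 0.0493, adjusted p = 6.4e-16). UHRF1, which guides maintenance methylation, fell by 2.48 with shYY2, by 1.08 with shFOXRED1 and by 0.30 with OE-TRIM15. The helicase subunit MCM6 fell from 72.1, 80.7 and 88 CPM to 36.2, 38.5 and 34.4 CPM with shFOXRED1 (1.14 on the log2 scale, adjusted p = 8.88e-09), and MCM5 fell by 0.36 with OE-TRIM15. On HFD, MCM3 rose from 72.3, 75.7 and 70.2 CPM to 131, 126 and 136 CPM, or by 0.85 (SE 0.0406, adjusted p = 7.82e-11), and CCNA2, the S phase cyclin gene, rose by 0.60. At 1.5-fold or more, 2 of the 26 rose on HFD and none fell with OE-TRIM15. CDT1, EZH2 and TOP2A, at -0.04, -0.076 and -0.049, were the 3 that did not pass with shYY2.

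**Figure D5:**
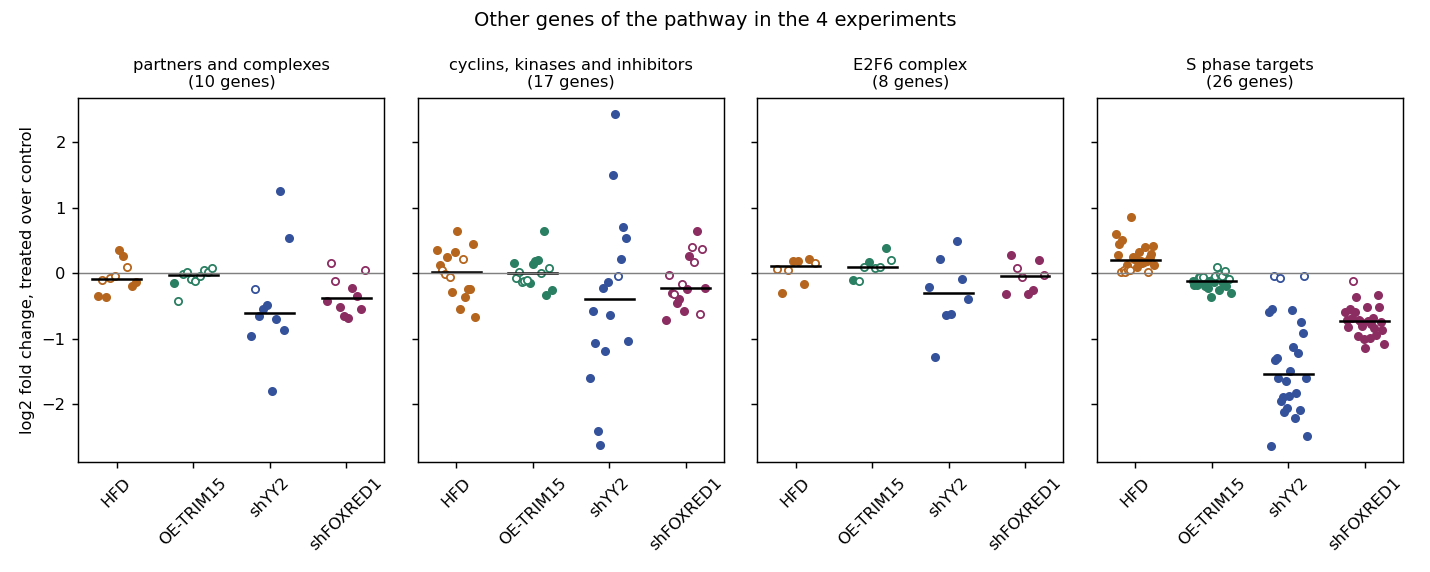
Log2 fold change (vertical axis) of the tested genes of 4 pathway lists in the 4 experiments, each point a gene, filled where it passed the test, with the median as a bar. The S phase targets lie below 0 with shYY2 and shFOXRED1 and above 0 on HFD, and the cyclins, kinases and inhibitors spread from -2.62 to 2.42 with shYY2.

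Over the 24 libraries, with log2 CPM centred on the control mean of each experiment, the genes whose pattern was most like that of E2F1 among 14273 were UHRF1 (Pearson's r = 0.993), DUT (0.993) and MCM5 (0.992). Of the family, E2F2 (0.978) and RBL1 (0.965) stood nearest to E2F1, and E2F5 had a negative value (-0.584). For E2F8 they were SIMC1 (0.972), RAD18 (0.971) and HJURP (0.969), and E2F1 reached 0.839. The 24 points fall into 8 groups, and share libraries, so these values are a description of likeness with no test.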

How the data were processed

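RNA-seq counts of 24 OE33 libraries were analysed. The authors deposited 1 table of raw read counts per gene for each experiment, with 61860 Ensembl identifiers and 6 value columns. The labels name the builds hg38 and mm10 without a role. The aligner and counter are not given in the sources used here, and the labels and the study's methods name different kits, so strand in counting is not settled. Groups and replicates came from sample titles. In the header of the TRIM15 counts 3 of 10 cells are empty, so columns were taken by number. Symbols were matched for 99.8% of identifiers.

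Each experiment was fitted in R 4.3.3 with edgeR 4.0.16: filterByExpr (minimum count 10, minimum total 15), TMM, glmQLFit and glmQLFTest, Benjamini-Hochberg adjustment over all genes tested, threshold 0.05. Standard errors were obtained from the F statistic (log2 value over root F). Differences of effects came from 1 fit over all 24 libraries. An exact permutation test of 3 against 3 cannot go below 0.1, so none was used for single genes. RPKM used merged GENCODE 29 exons. Alternatives were DESeq2 1.42.0 size factors and Wald test, no filter, a minimum of 10 counts per library, a block on the replicate number, each library left out, a fold of 1.5 and, for differences, the 12 libraries compared. The code was tested on simulated counts.

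Replicate numbers are shared by treated and control groups. Deviations from group means correlated between equal numbers at -0.0275 to 0.097 over all genes, which does not pair them. Over genes with a mean of at least 10 CPM, the 3 values were 0.211, 0.125 and 0.41 in the shFOXRED1 experiment and below 0.1 for at least 1 number in each other experiment, so the blocked value is given for shFOXRED1 where it changes a call.

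The members and lists were chosen with earlier results of these data known. Of each list, the 2 called genes that rose most and the 2 that fell most are named, and RBL2, TFDP1, MYBL2, CCND1, CCNE1, CCNE2, CDKN1A and CDKN1B always. CDT1, EZH2, TOP2A and RBIS were named after their values were seen.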

Additional observations from a re-analysis of the deposited data

Results flagged for a closer look

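E2F5 was picked out because its changes with shYY2 and OE-TRIM15 differed and ran in opposite directions. Its log2 fold change was 0.19 with shYY2 and -0.21 with OE-TRIM15, and the difference in the joint fit was 0.44 (SE 0.119, 95% interval 0.20 to 0.69, adjusted p = 0.00212). Against shFOXRED1 the difference of 0.20 did not pass the test. Each single change was lost without some single libraries, and the part of the opposite-strand gene RBIS in it was not tested.

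E2F1 was picked out because HFD and OE-TRIM15 moved it in opposite directions. The log2 fold change was 0.16 on HFD and -0.31 with OE-TRIM15, and the difference was 0.47 (SE 0.0865, 95% interval 0.30 to 0.65, adjusted p = 8.24e-05). The first was measured in tumors and the second in cultured cells, and the setting and the treatment cannot be told apart. TRIM15 had 12 to 24 counts a library in the HFD tumors and 111 to 181 in the OE-TRIM15 cells.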

How the results depend on the processing

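The 9 members that fell with shYY2 and the 6 that fell with shFOXRED1 stayed at those counts under every alternative but a fold of at least 1.5, which left 8 and 4. That fold left 0 of the 5 members higher and 0 of the 2 lower on HFD, 0 of the 3 lower with OE-TRIM15 and 0 of the 1 higher with shYY2, and 0 of the genes called in the list of E2F6 partners but 3 lower with shYY2. The count of members lower on HFD was 1 with DESeq2 size factors, 1 with no filter and 1 with the DESeq2 Wald test, which also gave 0 members higher with shYY2 and 2 lower with OE-TRIM15, and 3 with at least 10 counts in every library, where E2F6 was called lower (adjusted p = 0.0396). With the replicate block 2 members were lower with OE-TRIM15 and 1 member, E2F6, was higher with shFOXRED1, and the genes called there went from 5752 to 6793. The block also ended the E2F5 calls on HFD and with OE-TRIM15 (adjusted p = 0.0566 and 0.0586), made E2F6 lower on HFD (adjusted p = 0.0454), and changed no other call of a member. Over genes with a mean of at least 10 CPM, 1 of 3 treated libraries correlated best with the control of its own number on HFD and with OE-TRIM15, and 2 of 3 with shYY2 and shFOXRED1.

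Without single libraries, the members lower on HFD numbered 1 to 2, those higher with OE-TRIM15 0 to 1, those lower with OE-TRIM15 1 to 3, those higher with shYY2 0 to 1, those with a higher effect of shYY2 than of shFOXRED1 1 to 2, and those with a lower effect of HFD than of OE-TRIM15 0 to 1. Of 1310 values of single members under alternatives, 1255 kept their direction and side of the threshold, 30 lost and 7 gained a call, and 18 turned sign, none of them called. With no filter the sign turned with OE-TRIM15 for E2F3 (-0.0069), E2F6 (-0.0078) and RB1 (-0.008) and on HFD for CCNE2 (0.0062), and with only the 12 libraries compared for E2F8 in shYY2 minus shFOXRED1 (-0.003). Without single libraries, the range with OE-TRIM15 was -0.0014 to 0.017 for E2F3, -0.053 to 0.046 for E2F6, -0.034 to 0.05 for RB1 and -0.022 to 0.042 for CCNE1, and on HFD -0.11 to 0.11 for CCNE2. With shFOXRED1 it was -0.081 to 0.0021 for E2F4 and -0.064 to 0.087 for E2F5. In shYY2 minus shFOXRED1 it was -0.039 to 0.10 for E2F8 and -0.12 to 0.0079 for RB1, and in HFD minus OE-TRIM15 -0.079 to 0.0036 for RB1. The cause was not tested. No other gene length was tried for RPKM, since exons were given. E2F2, at 34 to 364 counts a library, is the member whose depth limits precision most.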
